A study of Homo sapiens with 3 samples.

Results

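Expression of 10 circadian clock genes was examined in A498, a cell line grown from a human kidney carcinoma, 4 h after the start of treatment. The genes, chosen by symbol, were PER1, PER2, PER3, CRY1, CRY2, NR1D1, NR1D2, BHLHE40, NFIL3 and CLOCK. Of these 10, 9 had at least 1 probe set annotated to that gene alone, with 22 such probe sets in total, among 18239 genes measured. NR1D1 was listed only for a probe set that it shares with THRA, so no value is given for it. There were 3 arrays, 1 for each of 3 cultures from 1 experiment. The first culture received E. coli 83972, an isolate known for carriage in the urinary tract with no symptoms. The second received 60 µM DRB, a nucleoside analogue that inhibits the kinase CDK9 and thereby stops RNA polymerase II from elongating transcripts. The control received 0.08% DMSO, and the labels state no DMSO for either treated culture. The labels disagree on the bacterial concentration. Every culture was a confluent layer moved to fresh serum-free RPMI with gentamicin. With 1 array per group there are no replicates, so each difference compares single arrays, no test of a difference between conditions was possible, and no p-value is given.

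The circadian clock of mammalian cells is a transcriptional feedback loop. CLOCK and its partner BMAL1 bind E-boxes in the promoters of the PER and CRY genes, whose protein products return to the nucleus and inhibit the pair. A second loop runs through the nuclear receptors NR1D1 and NR1D2, known as REV-ERBα and REV-ERBβ, which repress BMAL1 at elements that the ROR receptors activate. NFIL3, also called E4BP4, is a basic leucine zipper repressor that competes with the activators DBP, TEF and HLF for D-boxes, and BHLHE40, also called DEC1, is a helix-loop-helix repressor that binds E-boxes. Several of these genes are also induced by signals from outside the cell, independently of the time of day.

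Levels are log2 values of probe sets as deposited, and a difference is the log2 value of 1 array minus that of another. Each gene was represented by its brightest probe set, and genes whose value was below 4.88, the median over all probe sets and arrays, on each of the 3 arrays were left out. Among all genes 11653 were kept, and among the clock genes 8 were. PER1 did not reach that level on any array. The array medians lay between 4.87 and 4.90. Among kidney epithelial and A498 markers 7 of 8 were measured, and all 7 lay above the filter level on every array. Their differences from the control were between −1.66 and 0.31, the lowest being those of LHX1, at −1.42 with E. coli 83972 and −1.66 with DRB, and PAX8 differed by −0.98 with DRB. The means over all probe sets were smaller in size. They were −0.80 with E. coli 83972 and −0.76 with DRB for LHX1 (3 probe sets), and −0.15 with DRB for PAX8 (4 probe sets). The leukocyte marker PTPRC read 3.43 with E. coli 83972, 3.52 with DRB and 3.41 in the control, and 1 of 5 measured leukocyte markers, CD3E, reached the filter level on any array. Above the filter level on every array were 2 of 4 endothelial markers, PECAM1 and VWF, and 1 of 5 fibroblast markers, COL1A1. Passing the filter therefore does not by itself identify a cell type. In bulk RNA of this kind, fewer cells with a transcript and less transcript per cell cannot be told apart.

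With E. coli 83972, NFIL3 stood out among the clock genes. Its level was 9.39 with E. coli 83972, 7.46 with DRB and 7.87 in the control. The E. coli 83972 array was thus the highest of the 3, and NFIL3 was 2.88-fold higher there than in the control (log2 difference 1.53). Of the 11653 kept genes 92 had a larger difference. NFIL3 was the 1 clock gene of 8 that was at least 2-fold higher than the control, and none was at least 2-fold lower. Over all kept genes the share at least 2-fold higher was 1.91%, and the share at least 2-fold lower was 0.652%. With DRB the difference of NFIL3 from the control was −0.40, and it was 3.81-fold higher with E. coli 83972 than with DRB (1.93). NFIL3 has a single probe set on this array, so no second reading of it exists.

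NR1D2, the REV-ERBβ repressor, had the next highest difference with E. coli 83972. Its brightest probe set read 8.25 with E. coli 83972, 7.08 with DRB and 7.56 in the control. The difference was 0.69 for E. coli 83972 against control, a 1.62-fold higher level, and −0.48 for DRB against control. All 4 probe sets of NR1D2 were higher with E. coli 83972 than in the control, by 0.47 to 0.69, and averaged 0.60 ± 0.11 higher (SD, 4 probe sets). With DRB the 4 probe sets did not share a direction. From the brightest to the dimmest they gave −0.48, −0.22, 0.20 and −0.031, so the lower level with DRB was not shared by all of them.

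The PER genes encode the proteins that, with the cryptochromes, close the main feedback loop. PER2 read 6.13 with E. coli 83972, 5.43 with DRB and 5.54 in the control, a difference of 0.59 with E. coli 83972 and −0.11 with DRB. The other 4 PER2 probe sets lay below the filter level on every array and differed from the control by −0.15 to 0.10 with E. coli 83972, so the mean over all 5 was 0.08 ± 0.30 (SD over probe sets). A difference of this size was thus read by the brightest PER2 probe set alone.

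PER3 read 6.93 with E. coli 83972, 5.77 with DRB and 6.53 in the control. It differed from the control by 0.41 with E. coli 83972 and −0.76 with DRB, and it was 2.24-fold higher with E. coli 83972 than with DRB (1.16). Its other 2 probe sets were dim and differed from the control by no more than 0.08 in size on either treated array. PER1, which is known to respond quickly to cyclic AMP and glucocorticoid signals, was dim in these cells. Its brightest probe set read 4.55 with E. coli 83972, 4.51 with DRB and 4.42 in the control. A second PER1 probe set read 4.77 with E. coli 83972, 4.00 with DRB and 3.96 in the control, a difference of 0.80 with E. coli 83972. The third differed by 0.20. All 3 probe sets were higher with E. coli 83972, but the levels were under the filter and the size is not settled by these readings.

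**Figure D1:**
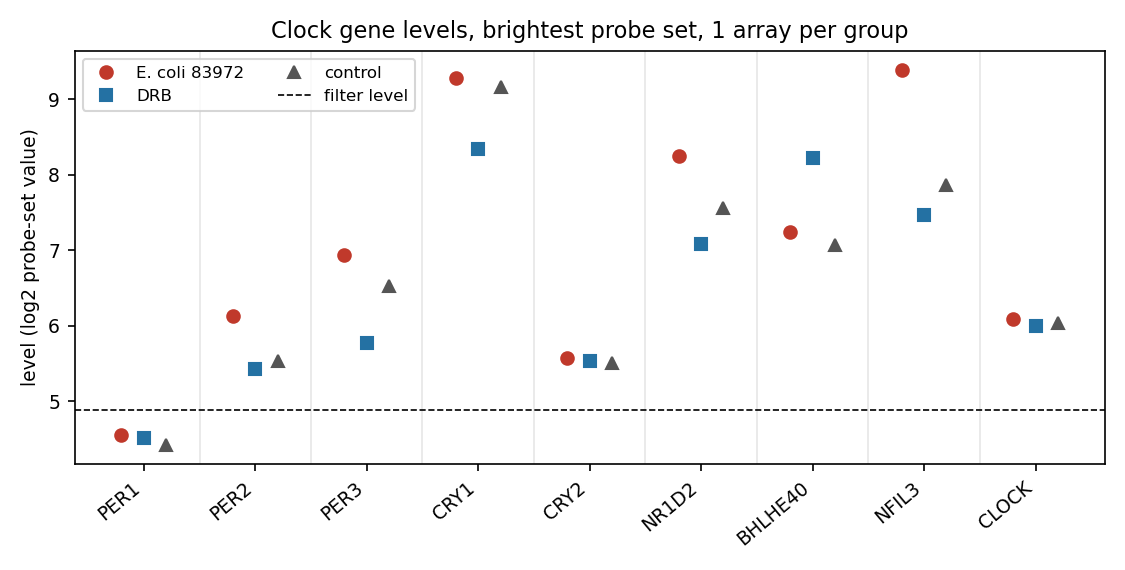
Log2 level (vertical axis) of the brightest probe set of each measured clock gene (horizontal axis), with 1 point for each of the 3 arrays and the filter level of 4.88 as a dashed line. NFIL3, NR1D2, PER2 and PER3 are highest on the E. coli 83972 array, BHLHE40 is highest on the DRB array, and PER1 lies under the filter level throughout.

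The cryptochromes CRY1 and CRY2, which are the strongest inhibitors of CLOCK and BMAL1, differed little with E. coli 83972. CRY1 read 9.29 with E. coli 83972, 8.34 with DRB and 9.17 in the control. The difference was 0.12 with E. coli 83972 and −0.83 with DRB, the lowest of the kept clock genes. CRY2 read 5.58 with E. coli 83972, 5.54 with DRB and 5.50 in the control, so its 3 arrays lay within 0.07 of each other. The second CRY2 probe set differed by 0.021 with E. coli 83972 and 0.19 with DRB. CLOCK, the activator of the loop, read 6.10 with E. coli 83972, 6.00 with DRB and 6.04 in the control, with all 3 arrays within 0.093. Its second probe set, below the filter level throughout, differed from the control by 0.22 with E. coli 83972 and 0.18 with DRB.

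BHLHE40 was the exception under DRB. Its level was 7.24 with E. coli 83972, 8.22 with DRB and 7.07 in the control. The DRB array was the highest of the 3, at 2.22-fold over the control (1.15), while E. coli 83972 differed from the control by 0.17. Of the 11653 kept genes 6 had a larger difference with DRB. It was the 1 clock gene of 8 at least 2-fold higher with DRB, and none was at least 2-fold lower. Over all kept genes the share at least 2-fold higher was 0.129%, and the share at least 2-fold lower was 10.2%. BHLHE40 is also known as a target of hypoxia-inducible factors, and like NFIL3 it has a single probe set here.

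**Figure D2:**
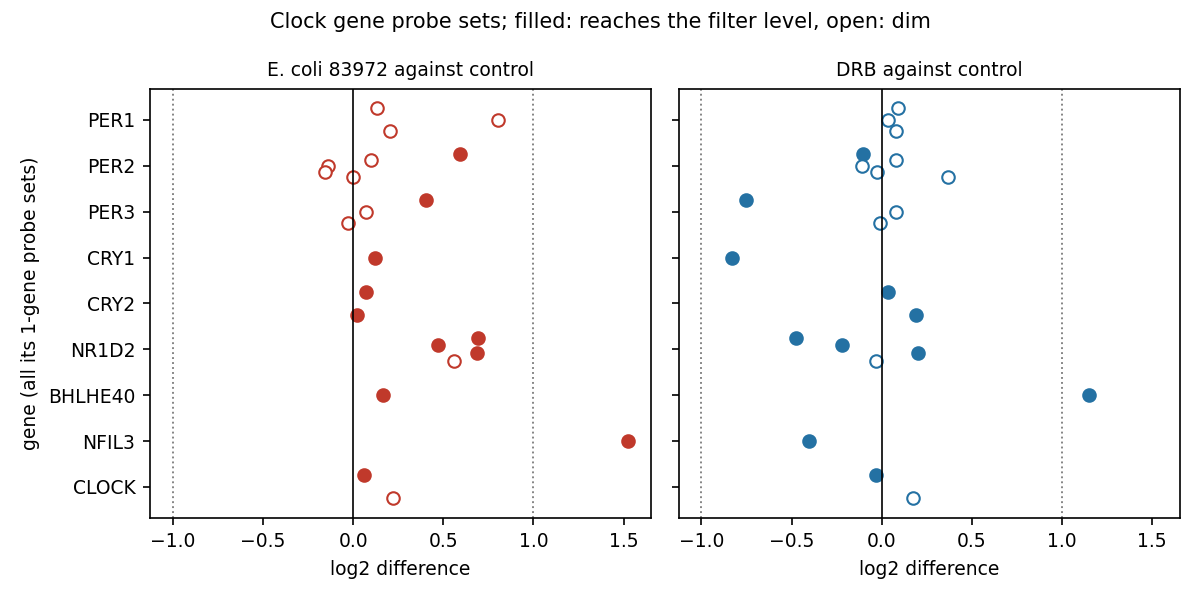
Log2 difference from the control (horizontal axis) for each of the 22 probe sets of the clock genes (vertical axis), with E. coli 83972 on the left and DRB on the right. Filled points reach the filter level on at least 1 array, open points do not, and dotted lines mark 2-fold. The 4 NR1D2 probe sets agree on a higher level with E. coli 83972. The single filled point of PER3 lies apart from the open ones in both panels. That of PER2 does so with E. coli 83972 but lies among the open ones with DRB.

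All 8 kept clock genes were above 0 for E. coli 83972 against control, where 45.2% of all kept genes were. Their median difference was 0.29, against −0.027 for all kept genes. With the mean over all probe sets of a gene, where PER2 and PER3 no longer reached the filter, all 6 remaining genes were above 0 and the median was 0.15, against −0.025 for all kept genes. The 4 smallest of the 8, for CLOCK, CRY2, CRY1 and BHLHE40, were between 0.06 and 0.17. As a measure of technical error, the differences given by the 2 brightest probe sets above the filter disagreed, over 6317 genes, with a spread equal to an SD of 0.12 for 1 log2 difference of E. coli 83972 against control by a robust estimate, and 0.18 by a plain one. Those 4 differences were below the plain estimate, and the 4 others were above it. This error holds no variation between cultures.

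For DRB against control 2 of the 8 kept clock genes, BHLHE40 and CRY2, were above 0 and 6 below, where 55.8% of all kept genes were above 0. Their median was −0.25, against 0.052 for all kept genes. With the mean over all probe sets 3 of 6 were above 0 and 3 below, and the median was −0.030, against 0.067 for all kept genes. The technical SD of a DRB difference was 0.15 by the robust estimate and 0.32 by the plain one. CRY1, PER3, NR1D2 and NFIL3 were lower than the control by more than the plain estimate, and PER2, CLOCK and CRY2 differed by less than the robust one.

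The signs of small differences depend on how the arrays are scaled, because the deposited values bring the 3 arrays to nearly one distribution. The 12 poly-A spike-in probe sets had median differences from the control of 0.14 with E. coli 83972 and 0.69 with DRB, and the 9 hybridization spike-in probe sets 0.25 and 0.21. Most of the hybridization spike-ins are E. coli genes, and whether bacterial RNA added to them was not tested. With centring on poly-A spike-ins 5 of the 8 clock genes were above 0 with E. coli 83972 (25.2% of all kept genes), and with hybridization spike-ins 4 of 8 were (15.2% of all kept genes). NFIL3, NR1D2, PER2 and PER3 stayed above 0 under both. BHLHE40 was higher with DRB by 0.46 with poly-A centring and 0.94 with hybridization centring, both under 2-fold. With poly-A centring PER3, CRY1, NR1D2 and NFIL3 were at least 2-fold lower than the control, as were 26.0% of all kept genes. This centring lowers every DRB difference alike, and the median of all kept genes was then −0.64. Under it 1 of the 8 clock genes, BHLHE40, was above 0 with DRB, against 1.06% of all kept genes.

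Between the treated arrays, E. coli 83972 against DRB, 3 of 8 kept clock genes were at least 2-fold higher, namely NFIL3 (1.93), NR1D2 (1.17) and PER3 (1.16). The means over all their probe sets were smaller for NR1D2 (0.73 over 4) and PER3 (0.38 over 3). None of the 8 was at least 2-fold lower. Over all kept genes the share at least 2-fold higher was 12.3%, and the share at least 2-fold lower was 0.386%. CRY1 (0.95) and BHLHE40 (−0.98) lay just under the 2-fold threshold, in opposite directions. In total 7 of the 8 were above 0, against 42.6% of all kept genes, and the median was 0.82 against −0.074. These signs also depend on scaling. With poly-A centring 7 of 8 were above 0, against 92.3% of all kept genes, and with hybridization centring 5 of 8, against 35.4%. The mean over all probe sets gave 4 of 6 above 0, against 41.6%.

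**Figure D3:**
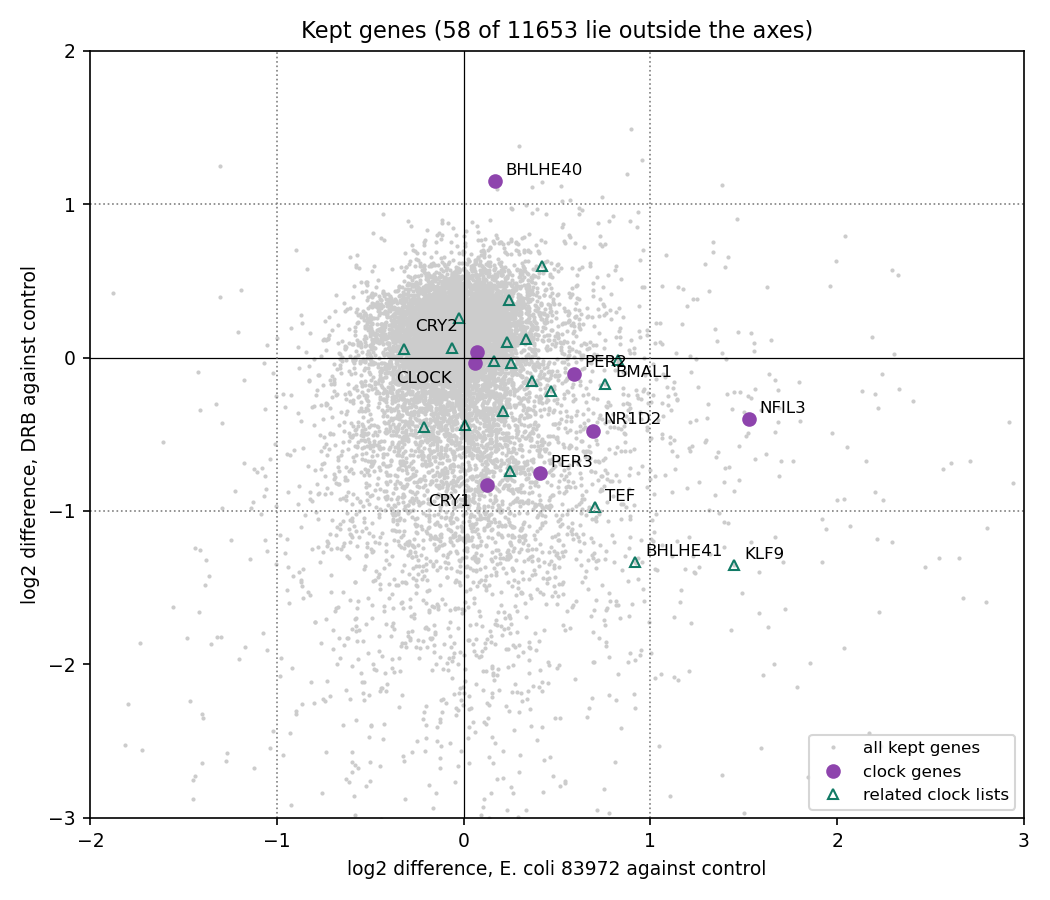
Log2 difference of E. coli 83972 against control (horizontal axis) and of DRB against control (vertical axis) for kept genes, with the 8 clock genes as filled circles and the genes of 3 related clock lists as triangles. Both axes share the control array, dotted lines mark 2-fold, and 58 of the 11653 genes lie outside the axes. NFIL3 lies far to the right, BHLHE40 at the top, and NR1D2 and PER3 to the lower right.

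Promoter sequences are shown for 5 of the genes described above, to show which known clock elements lie near their starts. CRY1, at −0.83 with DRB, is not among these 5. The sequences are RefSeq windows of build GRCh38.p14, from 250 bases before to 50 bases after a transcript start, 5′ to 3′ on the gene's strand. All 10 genes had such windows, 15 in total. Both strands were searched for the E-box CACGTG, the variant CACGTT (on the other strand read as AACGTG), the D-box forms TTACGTAA and TTATGTAA (on the other strand read as TTACATAA), the ROR element core AGGTCA (on the other strand read as TGACCT) and the cyclic AMP response element TGACGTCA. Capitals mark the matches, none of which overlapped another.
NFIL3, chr9:91423783-91424082, minus strand: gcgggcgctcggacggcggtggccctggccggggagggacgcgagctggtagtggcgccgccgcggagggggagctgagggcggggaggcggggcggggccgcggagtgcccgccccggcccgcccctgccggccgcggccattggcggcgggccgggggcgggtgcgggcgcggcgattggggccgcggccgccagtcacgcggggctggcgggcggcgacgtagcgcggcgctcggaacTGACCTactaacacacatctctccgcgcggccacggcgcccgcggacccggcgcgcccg
NR1D2, chr3:23945871-23946170, plus strand: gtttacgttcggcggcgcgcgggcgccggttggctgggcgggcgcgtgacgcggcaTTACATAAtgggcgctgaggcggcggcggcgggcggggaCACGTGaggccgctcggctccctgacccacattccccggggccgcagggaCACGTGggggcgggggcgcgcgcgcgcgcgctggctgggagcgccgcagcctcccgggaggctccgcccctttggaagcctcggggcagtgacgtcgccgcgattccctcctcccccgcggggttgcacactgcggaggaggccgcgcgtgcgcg
PER2, chr2:238288561-238288860, minus strand: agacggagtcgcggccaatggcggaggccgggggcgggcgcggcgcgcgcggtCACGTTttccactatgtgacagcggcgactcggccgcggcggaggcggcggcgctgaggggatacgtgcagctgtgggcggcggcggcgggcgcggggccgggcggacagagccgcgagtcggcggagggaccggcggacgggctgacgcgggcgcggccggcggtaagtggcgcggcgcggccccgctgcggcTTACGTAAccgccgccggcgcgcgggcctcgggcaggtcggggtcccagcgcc
PER3, chr1:7784041-7784340, plus strand: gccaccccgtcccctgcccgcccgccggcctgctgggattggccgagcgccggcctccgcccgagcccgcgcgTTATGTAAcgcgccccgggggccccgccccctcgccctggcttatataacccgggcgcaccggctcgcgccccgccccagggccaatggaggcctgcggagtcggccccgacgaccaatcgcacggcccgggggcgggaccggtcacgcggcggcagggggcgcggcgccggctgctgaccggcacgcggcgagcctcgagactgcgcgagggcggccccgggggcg
BHLHE40, chr3:4979187-4979486, plus strand: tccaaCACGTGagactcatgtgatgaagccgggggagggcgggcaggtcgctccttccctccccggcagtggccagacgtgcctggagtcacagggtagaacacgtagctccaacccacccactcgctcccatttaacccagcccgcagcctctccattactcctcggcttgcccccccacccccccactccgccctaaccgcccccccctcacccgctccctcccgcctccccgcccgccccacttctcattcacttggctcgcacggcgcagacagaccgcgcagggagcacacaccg

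Letters of a searched D-box form stood in 1 window each of NR1D2, PER2 and PER3. That is 3 of 15 windows, against 1.01% of 35116 windows of all genes. Other D-box forms were not searched for, so these counts hold for the searched forms alone. In NR1D2 the match begins 194 bases before the start, in PER3 177 bases and in PER2 3 bases. NR1D2 also has E-boxes 155 and 105 bases before the start, and BHLHE40 has 1 E-box 245 bases before it. The E-box was present in 3 of 15 windows, the third being that of PER1, against 7.26% of all windows. The variant CACGTT was present in 5 of 15, in PER2, CRY1, CRY2, NR1D1 and CLOCK, against 5.34%. The NFIL3 window shown holds an AGGTCA core, on the other strand, 9 bases before the start, and the other NFIL3 window has no match. The second windows of NR1D2 and PER3, not shown, have no match either. For NFIL3, NR1D2 and PER3 the window shown is thus the one with a match. That core was present in 4 of 15 windows, against 13.8% of all, and the cyclic AMP response element in none, against 1.85%. A match is a description of letters and not evidence of binding.

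Other genes of the clock were followed in 3 lists. The first held partners, ROR receptors and further repressors, 9 genes of which 8 were measured and 5 kept. For E. coli 83972 against control 0 of 5 were at least 2-fold different, and the median was 0.42. BHLHE41, the DEC2 paralogue of BHLHE40, had the largest difference. It read 7.90 with E. coli 83972, 5.65 with DRB and 6.98 in the control, with differences of 0.92 for E. coli 83972 and −1.33 for DRB. The paralogues thus lay on opposite sides of the control on the DRB array. The mean over the 3 probe sets of BHLHE41 was smaller in size, 0.43 with E. coli 83972 and −0.39 with DRB.

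BMAL1, the partner of CLOCK, read 7.25 with E. coli 83972, 6.32 with DRB and 6.49 in the control, with differences of 0.76 and −0.17. The means over its 3 probe sets were 0.50 and 0.0018, so a lower level with DRB was not seen over all of them. BMAL2, its paralogue, was higher on both treated arrays, by 0.42 with E. coli 83972 and 0.60 with DRB, and so was NPAS2, the paralogue of CLOCK, by 0.24 and 0.38. TIMELESS, which acts mainly in DNA replication in mammals, differed by −0.32 and 0.06, with means over 2 probe sets of −0.16 and 0.20. For DRB against control 1 of 5 in this list, BHLHE41, was at least 2-fold lower, none was higher, and the median was 0.057. RORA, RORB and CIART lay under the filter level.

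The second list held enzymes that modify clock proteins, 11 genes of which 10 were measured and 8 kept. None was at least 2-fold different from the control on either treated array, and the medians were 0.24 with E. coli 83972 and −0.028 with DRB. CSNK1E, a casein kinase 1 isoform that phosphorylates PER proteins, was the highest with E. coli 83972. It read 8.55 with E. coli 83972, 7.70 with DRB and 7.72 in the control, a difference of 0.83, with a mean of 0.71 over its 4 probe sets. Its close relative CSNK1D differed by −0.21 with E. coli 83972 and −0.45 with DRB. GSK3B, the kinase glycogen synthase kinase 3β, differed by 0.25 and −0.74, with means over 2 probe sets of 0.10 and −0.32. FBXW11 and BTRC encode the β-TrCP ubiquitin ligase subunits, and they differed by 0.37 and −0.15 (FBXW11) and by 0.23 and 0.10 (BTRC). The means over 4 probe sets were 0.28 and −0.16 for FBXW11 but 0.05 and −0.11 for BTRC. CSNK1A1, another casein kinase 1 isoform, differed by 0.25 with E. coli 83972 and −0.03 with DRB in its brightest probe set, but by −0.066 and 0.051 in the mean over 12, so no direction is settled for it.

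The third list held output genes of the clock, 8 genes, all measured, of which 7 were kept. With E. coli 83972 1 of 7 was at least 2-fold higher and none lower (median 0.33), and with DRB 1 of 7 was at least 2-fold lower and none higher (median −0.35). Both counts were KLF9, a Krüppel-like factor that also responds to glucocorticoids. KLF9 read 7.44 with E. coli 83972, 4.63 with DRB and 5.99 in the control, with differences of 1.45 and −1.36. Its mean over 4 probe sets was 0.68 with E. coli 83972 and −0.35 with DRB. TEF, an activator at D-boxes, read 7.44 with E. coli 83972, 5.77 with DRB and 6.74 in the control, with differences of 0.70 and −0.97 and means over 2 probe sets of 0.40 and −0.43. NAMPT, the rate-limiting enzyme of NAD salvage, differed by 0.47 and −0.22 (means over 3 probe sets 0.32 and −0.11), and WEE1, the kinase that restrains entry into mitosis, by 0.01 and −0.44. KLF10 differed by 0.33 and 0.12, and PPARA, a nuclear receptor of fatty acid metabolism, by 0.21 and −0.35 (means over 8 probe sets 0.055 and −0.044). HLF, also an activator at D-boxes, differed by −0.028 and 0.26 (means over 4 probe sets 0.064 and 0.16). It reached the filter level on the DRB array alone, at 4.92. DBP was under the filter level on every array.

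**Figure D4:**
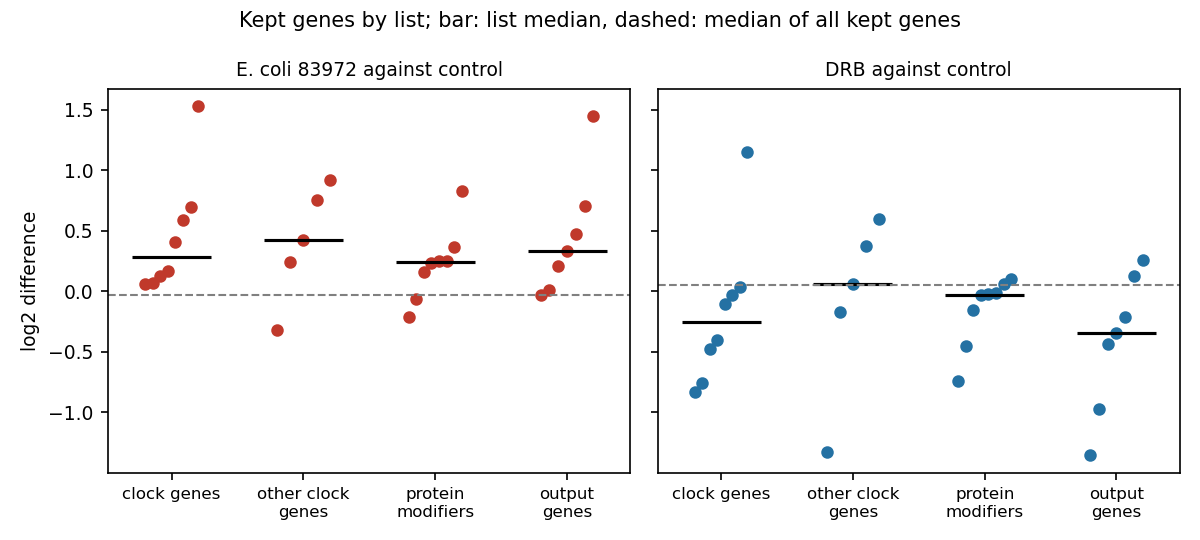
Log2 difference from the control (vertical axis) of each kept gene in the 4 lists (horizontal axis), with E. coli 83972 on the left and DRB on the right. Bars are list medians and dashed lines the median of all kept genes. With E. coli 83972 the 4 medians lie between 0.24 and 0.42. With DRB they are −0.25 (clock genes), 0.057 (other clock genes), −0.028 (protein modifiers) and −0.35 (output genes).

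Over the 3 related lists 16 of 20 kept genes were above 0 for E. coli 83972 against control, against 45.2% of all kept genes, and 7 of 20 for DRB against control, against 55.8%. With hybridization spike-in centring 10 of 20 were above 0 with E. coli 83972, against 15.2% of all kept genes, and 3 of 20 with DRB, against 28.4%. With poly-A centring 0 of 20 were above 0 with DRB, against 1.06% of all kept genes. The mean over all probe sets gave 8 of 19 above 0 with DRB, against 57.3%.

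The kept genes whose pair of differences from the control lay nearest to that of NFIL3, by Euclidean distance over the 3 arrays, were DUSP16 (distance 0.057), NFKBIZ (0.089) and PPP3CC (0.091). DUSP16 encodes a MAP kinase phosphatase, and it differed by 1.501 with E. coli 83972 and −0.35 with DRB. NFKBIZ, which encodes a nuclear IκB protein, differed by 1.52 and −0.49, and PPP3CC, a catalytic calcineurin subunit gene, by 1.59 and −0.34. Nearest to BHLHE40 were the phosphodiesterase gene PDE11A (distance 0.052), with differences of 0.18 and 1.10, the salt-inducible kinase gene SIK1 (0.20), with 0.25 and 0.97, and the inositol trisphosphate receptor gene ITPR2 (0.20), with 0.37 and 1.11. With 3 arrays, many genes can lie near any pattern, and the distances are a description.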

How the data were processed

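Messenger RNA was measured on Affymetrix 3′ expression arrays, 1 each for E. coli 83972, DRB and control. The deposited values are log2 probe-set values which the authors made with RMA and Partek, per the submitters' processing notes. Software versions and the set of arrays normalized jointly were not given in the sources used here. This method brings arrays to nearly one distribution, so a change shared by most transcripts is reduced or removed, and it can make differences of dim probe sets smaller. No pseudocount and no further scaling was applied.

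Of 49386 probe sets, 45259 had 1 symbol in the platform annotation, 1327 had several and 2800 were not listed. Symbols were updated through Entrez identifiers with RefSeq genes of GRCh38.p14. Probe sets with several genes named none. A gene was called at 2-fold, that is a log2 difference of 1. The clock genes, lists and alternatives were chosen with earlier results of these data known. Named beside the clock genes were, from each related list, genes at least 2-fold different from control and in any case the 4 with the largest differences in either comparison with control, and the 3 nearest genes of each clock gene at least 2-fold different from control; further list genes, among them markers and genes named only as under the filter level, were chosen after their values were seen. The code that makes the calls was run on simulated data with planted differences larger than the threshold. That run does not measure the error of calls near 2-fold, of dim probe sets or between cultures. Alternatives were the mean over probe sets, plain-suffix probe sets (names ending in _at with no letter before it), no filter, median centring, quantile normalization, loess, both spike-in centrings and a 1.5-fold threshold. Python 3.11.15, pandas 2.3.3 and statsmodels 0.14.6 were used. Precision is limited by having 3 arrays.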

Additional observations from a re-analysis of the deposited data

How the results depend on the processing

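No paired analysis was possible because each group has 1 array. Medians below are log2 differences, and the same settings were applied to counts of genes at least 2-fold different. Of 168 alternative values of single clock genes, 142 moved by less than the plain probe-set SD, and 17 had the other sign, none of them a difference of at least 2-fold as deposited. Some of the 142 could not move. Without the filter each kept clock gene has its deposited value, and so has a gene with 1 probe set under the mean over probe sets. PER2 and PER3 have no value under that mean, so the tally is not a measure of stability. For E. coli 83972 against control, the clock genes had a median of 0.85 with plain-suffix probe sets (NFIL3 and BHLHE40 only) and 0.034 with hybridization spike-in centring, and 3 were higher at a 1.5-fold threshold; with the mean over probe sets the median was 0.15. For DRB against control, 0 were higher with either spike-in centring, 4 were lower with poly-A centring, 1 with hybridization centring and 2 at 1.5-fold. The median was −0.030 with the mean over probe sets, 0.37 with plain-suffix probe sets and −0.94 with poly-A centring. For E. coli 83972 against DRB, 1 was higher with the mean over probe sets, where PER2 and PER3 fell under the filter, 1 with plain-suffix probe sets and 5 with poly-A centring or at 1.5-fold. The count of lower genes was 1, BHLHE40, with quantile normalization, with hybridization centring and at 1.5-fold. The medians were 0.40 with the mean over probe sets, 0.47 with plain-suffix probe sets and 1.37 with poly-A centring. With E. coli 83972 the first related list had a median of 0.24 without the filter, and the modifiers 0.071 with the mean over probe sets. With the mean over probe sets 0 related genes were at least 2-fold different from control, and against DRB 0 in the first list and 1 among output genes were higher with E. coli 83972. With poly-A centring the medians for DRB against control were −0.63 (first list), −0.72 (modifiers) and −1.04 (outputs), with 2 modifiers and 4 outputs lower, and those for E. coli 83972 against DRB were 0.41, 0.81 and 1.10, with 2, 3 and 4 genes higher. Spike-in centring moves every gene by one amount, so it changes signs and counts and not the order of genes within a comparison. A gene with 1 probe set, such as NFIL3 or BHLHE40, has no check by another probe set. PER1 and the dim probe sets of PER2 and PER3 lie under the filter level, and whether their differences are compressed there was not tested.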
